A study of Mus musculus with 12 samples.

Results

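Markers of the alveolar epithelium were followed with 10 of the 45101 probe sets on the array, which stand for 7 genes: Sftpc, Sftpd and Etv5 for type II cells, and Hopx, Pdpn, Aqp5 and Cav1 for type I cells. They were taken by probe set number from a list of alveolar markers. The deposited table carries no gene names, so the name of each probe set is the one that came with the list. Lung adenocarcinomas of cyclin E transgenic mice carried far less signal for 2 of the type I genes than the normal lung around them. Cav1 signal was 7.15-fold lower in tumor than in adjacent normal lung, and Hopx signal was 3.71-fold and 4.60-fold lower on its 2 probe sets. Pdpn fell by 0.37 on the log2 scale, and Aqp5 did not pass the test. Of the type II genes, Sftpd rose 1.54-fold, and neither Sftpc nor any of 3 Etv5 probe sets passed the test. The Pdpn and Sftpd calls were lost in 9 and 6 of 23 alternative settings.

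Gene expression was measured in 12 lung specimens on Affymetrix Mouse 430 2.0 arrays, with 4 arrays in each of 3 groups. All animals were male FVB mice, an inbred strain, aged 7 to 11 months. The first group was normal lung of non-transgenic mice. The other groups were adjacent normal lung and lung adenocarcinoma, both from mice that express wild-type human cyclin E, a driver of cell cycle entry, under the human surfactant protein C promoter. This promoter is active in distal lung epithelium, and the normal lung of the transgenic mice carries the transgene too. The labels state that tumor and normal tissue were told apart by gross pathology, and the study's methods call the adjacent lung normal by histopathology. No selection of epithelial cells is described, and each array was made from 5 µg of total RNA. The design text draws the tumor and adjacent normal tissue from 4 transgenic mice, and the labels call each specimen adjacent to another of the series. That specimens with the same replicate number share a mouse was inferred from neighbouring specimen codes, while the study's methods call the 12 samples independent, so the pairing is not certain. Values are log2 signals, in which a difference of 1 is a 2-fold change. Probe sets differ in how brightly they hybridize, so their levels are not read as differences in abundance between genes.

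The surface of the alveolus is made by a pair of epithelial cell types. Type II cells are cuboidal, secrete surfactant and act as progenitors that divide and give rise to type I cells. Type I cells are thin and flat, cover most of the gas exchange surface and lie against the capillaries. Surfactant proteins and the transcription factor Etv5 are used as markers of type II cells, and Hopx, Pdpn, Aqp5 and Cav1 as markers of type I cells. None of the type I markers belongs to type I cells alone. Cav1 is abundant in endothelium, Pdpn is made by lymphatic endothelium and some fibroblasts, and Aqp5 is also found in airway and gland epithelium. In bulk tissue, fewer cells of a type and less RNA per cell cannot be told apart. Markers of endothelium, fibroblasts, immune cells and airway cells could not be named on these arrays, so their part in the results below was not tested.

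In all 12 arrays, each of the 10 probe sets was brighter than the median signal of the deposited values, 4.18, so the filter on dim probe sets removed none of them. Of all probe sets, 23538 passed the filter and were tested together in limma. Median signals of the arrays ranged from 4.10 to 4.38. Tumor 2 stood apart from the other tumors, with a mean distance of 153.9 to its group over all tested probe sets, against 96.7 to 102.9 for the others. Adjacent normal lung 3 stood apart to a lesser extent, at 104.7 against 66.2 to 69.8. The 3′ minus 5′ difference of the Gapdh control, a measure of RNA integrity, ranged from 0.09 to 0.23 in non-transgenic lung, from 0.11 to 0.33 in adjacent normal lung and from -0.02 to 0.33 in tumor, so the groups overlapped. For the beta-actin control the ranges were 0.60 to 0.75, 0.68 to 0.92 and 0.62 to 0.97. Tumors 3 and 4, at 0.95 and 0.97, were above all 8 normal lungs on this control, tumor 2 was at 0.90 and tumor 1 at 0.62. The part of RNA integrity in the results was not tested.

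**Figure D1:**
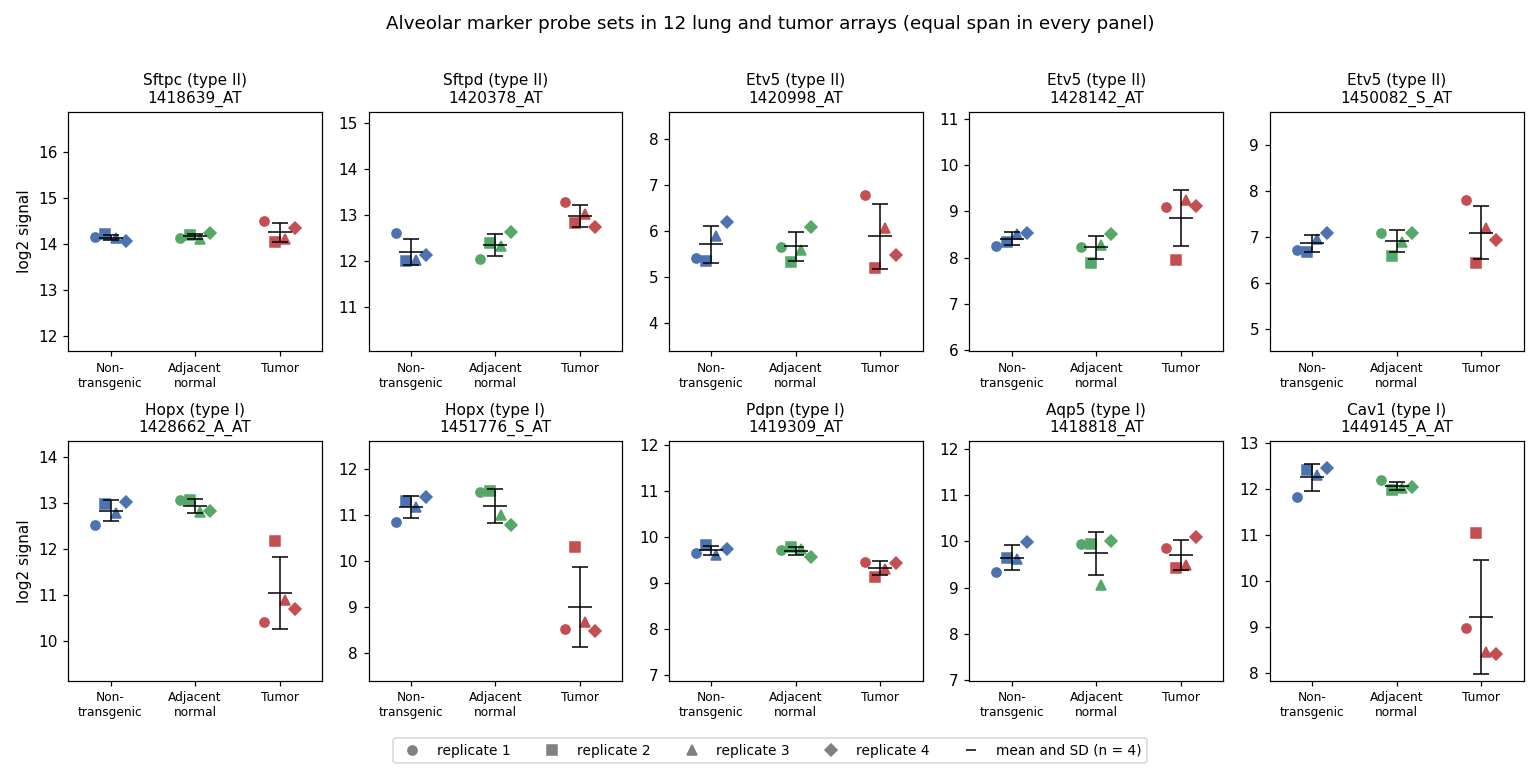
Log2 signal of each alveolar marker probe set in every array, by group. Points are arrays, with a symbol for each replicate number, horizontal lines are group means and bars are SDs (n = 4), and all panels cover an equal span of log2 units. Hopx and Cav1 are low in the tumors, least so in tumor 2, Sftpd is high in the tumors, and the non-transgenic and adjacent normal lungs overlap in each panel.

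The comparison of tumor with adjacent normal lung asked which alveolar markers differed between the cancers and the lung that surrounded them. Of the 10 probe sets, 1 rose and 4 fell at an adjusted p under 0.05 (limma, Benjamini-Hochberg over all tested probe sets). Over all tested probe sets, 28.7% passed the same test in either direction, 13.2% as higher and 15.6% as lower. The 4 that fell were all among the 5 type I probe sets, and the 1 that rose was among the 5 type II probe sets. The median difference was -1.89 over the type I probe sets and 0.21 over the type II probe sets, against 0.07 over all tested. Hopx holds 2 of the 5 type I probe sets and Etv5 3 of the 5 type II ones, so these counts and medians are not per gene. The type I median is the value of Hopx 1428662_A_AT itself, and the type II median that of Etv5 1420998_AT. All 5 type II differences had a positive sign and all 5 type I differences a negative one, although 5 of these 10 differences did not pass the test. The Aqp5 sign turned with each array centred on its median (0.092). Without tumor 1 the signs of Etv5 1420998_AT and 1450082_S_AT turned (-0.085 and -0.055). The median over all tested probe sets was also positive. With the replicate number as a fixed block in a fit of the 8 tumor and adjacent normal arrays, 3 of the 10 probe sets passed, both Hopx probe sets and Cav1, where 13.9% of all tested passed. With the number as a random block over all 12 arrays, 1 rose and 4 fell, where 30.5% of all tested passed.

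**Figure D2:**
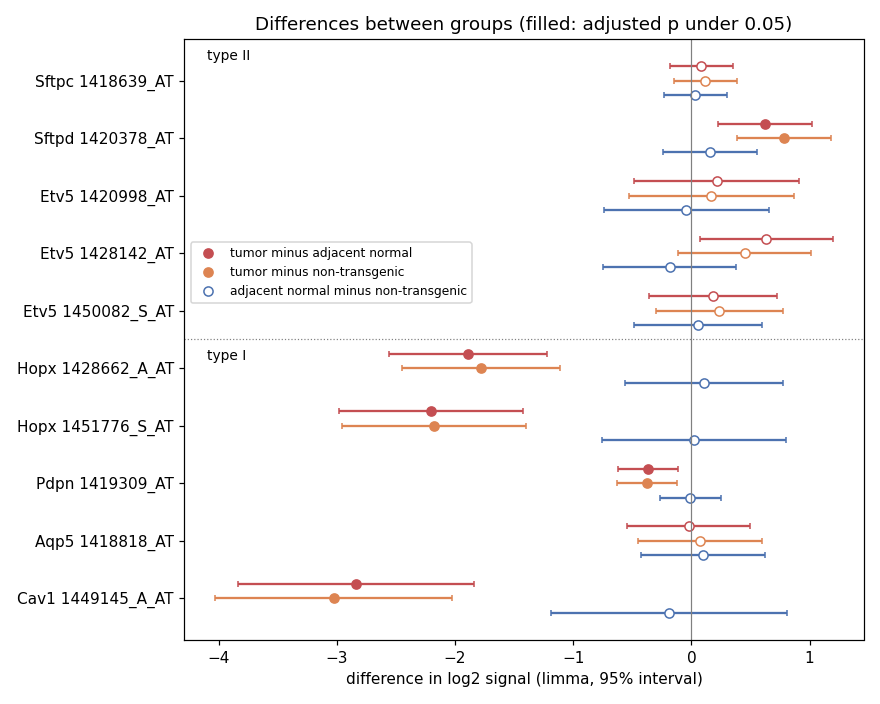
Difference between groups in log2 signal for each probe set, from limma, with 95% confidence intervals. Filled points passed an adjusted p under 0.05. The Hopx, Pdpn and Cav1 intervals for tumor lie below 0 and the Sftpd intervals above it, and every interval for adjacent normal against non-transgenic lung spans 0.

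Among the type I genes, Hopx and Cav1 showed the large differences. Hopx is an unusual homeodomain protein that does not bind DNA and works through other factors, and Cav1 encodes caveolin-1, the main protein of caveolae. Pdpn encodes podoplanin, a membrane glycoprotein of the type I cell surface, and Aqp5 encodes a water channel. The sequences before the annotated starts of these 4 genes are shown because the measured differences of these genes ran from near 0 to several-fold. They are the 250 bases upstream of the gene start in RefSeq (GRCm38.p6), 5′ to 3′ on the gene's own strand, and the files themselves hold no coordinates. Hopx lies on chromosome 5 (minus strand, promoter at chr5:77115124-77115373), Cav1 on chromosome 6 (plus strand, chr6:17306085-17306334), Pdpn on chromosome 4 (minus strand, chr4:143299565-143299814) and Aqp5 on chromosome 15 (plus strand, chr15:99590778-99591027). Capitals mark the motifs found on either strand, where a match on the other strand is written as its reverse complement.
Hopx: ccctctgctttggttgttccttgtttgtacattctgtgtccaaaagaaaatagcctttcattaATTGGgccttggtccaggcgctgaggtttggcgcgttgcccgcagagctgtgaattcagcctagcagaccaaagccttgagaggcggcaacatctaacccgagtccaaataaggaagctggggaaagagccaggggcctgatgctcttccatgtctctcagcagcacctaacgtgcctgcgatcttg
Cav1: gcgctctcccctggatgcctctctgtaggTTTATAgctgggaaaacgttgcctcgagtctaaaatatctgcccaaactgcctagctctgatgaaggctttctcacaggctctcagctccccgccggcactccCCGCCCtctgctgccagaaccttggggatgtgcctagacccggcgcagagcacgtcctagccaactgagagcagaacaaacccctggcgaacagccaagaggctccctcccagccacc
Pdpn: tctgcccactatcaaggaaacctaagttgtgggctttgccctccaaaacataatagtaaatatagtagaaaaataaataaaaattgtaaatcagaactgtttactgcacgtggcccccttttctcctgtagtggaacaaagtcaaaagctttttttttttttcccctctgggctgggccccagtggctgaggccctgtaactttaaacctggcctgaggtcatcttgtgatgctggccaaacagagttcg
Aqp5: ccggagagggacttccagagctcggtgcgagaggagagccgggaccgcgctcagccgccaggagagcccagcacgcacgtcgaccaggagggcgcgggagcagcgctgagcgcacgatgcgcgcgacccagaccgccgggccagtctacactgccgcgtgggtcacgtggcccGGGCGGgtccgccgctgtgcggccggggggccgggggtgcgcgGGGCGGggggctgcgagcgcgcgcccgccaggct

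The 4 promoters differed in base composition. The share of G and C was 52.4% for Hopx, 59.6% for Cav1, 43.2% for Pdpn and 78.4% for Aqp5, against a median of 52.4% over 32851 RefSeq mouse promoters. The Aqp5 promoter held 38 CpG dinucleotides, Cav1 10, Hopx 8 and Pdpn 2, where the median promoter held 6 and the upper quartile was 16. Hopx and Cav1 each have a further start inside the gene, whose upstream sequence is not shown. There the share of G and C was 57.6% with 18 CpG for Hopx and 60.8% with 12 CpG for Cav1. Which start is used in lung was not tested. Of the 4 genes, Aqp5, whose difference did not pass, had the promoter richest in CpG, which describes 4 sequences and is no test. The motifs searched on both strands were the TATA box with the letters TATAAA, the CCAAT box, the GC box with the letters GGGCGG, the core bound by TEAD factors with the letters GGAATG, and a core bound by the lung epithelial factor NKX2-1 with the letters CACTTNA. In this order they were found in 12.4%, 33.8%, 32.7%, 12.6% and 10.1% of all promoters. Hopx held a CCAAT box from -187 to -183 relative to the gene start. Cav1 held a TATA box from -221 to -216 and a GC box from -118 to -113. Aqp5 held GC boxes from -77 to -72 and from -34 to -29. Pdpn held none of these motifs, and none of the 4 sequences held the TEAD or NKX2-1 letters. A match shows only that the letters are present.

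Cav1 showed the largest difference of the 10. Its probe set (1449145_A_AT) read 11.83, 12.42, 12.30 and 12.47 in the 4 non-transgenic lungs and 12.20, 11.99, 12.02 and 12.06 in the 4 adjacent normal lungs. In tumors 1 to 4 it read 8.97, 11.04, 8.47 and 8.42. All 4 tumors were below all 8 normal lungs, a separation that 13.0% of the tested probe sets showed against the adjacent normal lungs, and tumor 2 lay between the other tumors and the normal lungs. The group means were 12.07 ± 0.09 (SD, n = 4) in adjacent normal lung and 9.23 ± 1.24 in tumor. The difference was -2.84 (SE 0.46, 95% confidence interval -3.84 to -1.84, adjusted p = 0.0012), which is 7.15-fold lower signal with an interval of 3.57-fold to 14.3-fold. This interval takes the spread as equal in the 3 groups, although the tumor SD was far above that of adjacent normal lung. The methods' t-test, which does not assume equal spread, gave an adjusted p of 0.12. Only 1.53% of the tested probe sets had a lower difference. Taken as a share of the adjacent normal mean on the linear scale, tumors 1, 3 and 4 kept 11.7%, 8.29% and 7.99% of the Cav1 signal and tumor 2 kept 49.2%. Without tumor 2 the difference was -3.44.

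Both Hopx probe sets fell in the same arrays. On 1428662_A_AT, signals were 12.54, 12.99, 12.80 and 13.03 in non-transgenic lung and 13.07, 13.07, 12.80 and 12.83 in adjacent normal lung. Tumors 1 to 4 read 10.42, 12.19, 10.90 and 10.70 on this probe set. Every tumor was again below every normal lung, and tumor 2 was again nearest to them. The difference between tumor (11.05 ± 0.78, n = 4) and adjacent normal lung (12.94 ± 0.15, n = 4) was -1.89 (SE 0.31, interval -2.56 to -1.22, adjusted p = 0.0012), a signal 3.71-fold lower with an interval of 2.33-fold to 5.89-fold.

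On 1451776_S_AT, whose name marks a probe set that may match more than 1 transcript, signals were 10.84, 11.31, 11.16 and 11.39 in non-transgenic lung and 11.49, 11.52, 10.99 and 10.79 in adjacent normal lung. Tumors 1 to 4 read 8.53, 10.30, 8.68 and 8.48. The groups did not overlap here either, and tumors 1, 3 and 4 lay within a narrow range. The difference was -2.20 (SE 0.36, interval -2.98 to -1.42, adjusted p = 0.0012), a signal 4.60-fold lower with an interval of 2.68-fold to 7.89-fold. Over the 12 arrays the 2 Hopx probe sets had a correlation of 0.99, which describes 2 probe sets of a single gene on shared arrays. On the linear scale, tumor 2 kept 59.3% and 53.6% of the adjacent normal Hopx signal, and the other tumors kept between 15.2% and 24.2%.

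Tumor 2 therefore lay between normal lung and the other tumors for these 3 probe sets. Of the distance from the adjacent normal mean to the mean of tumors 1, 3 and 4, tumor 2 had moved 33.2% and 34.2% for Hopx and 29.7% for Cav1. The same share had a median of 33.5% over the 3019 tested probe sets that were lower by at least 1 log2 unit in tumors 1, 3 and 4, and of 15.7% over the 1790 that were higher by as much. The position of tumor 2 on Hopx and Cav1 was thus near the median of the probe sets that were lower in the other tumors.

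Pdpn fell by less. Its probe set (1419309_AT) read 9.66, 9.84, 9.61 and 9.74 in non-transgenic lung, 9.72, 9.78, 9.73 and 9.58 in adjacent normal lung and 9.45, 9.13, 9.31 and 9.44 in tumor. All tumors were below all normal lungs, and the lowest was tumor 2, the tumor that was highest for Hopx and Cav1. The difference was -0.37 (SE 0.12, interval -0.62 to -0.11, adjusted p = 0.034), a signal 1.29-fold lower with an interval of 1.08-fold to 1.54-fold, and 23.2% of the tested probe sets had a lower difference. This call rested on the setting. With each array centred on its own median the difference was -0.25 (adjusted p = 0.13), with only the 8 arrays compared the adjusted p was 0.083, and with the replicate number as a fixed block in those 8 arrays it was 0.17. As a random block over all 12 arrays it was 0.030. Without adjacent normal lung 1, 2 or 3, or without tumor 3, the adjusted p was 0.079, 0.085, 0.053 and 0.079.

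No difference of Aqp5 passed the test. Its probe set (1418818_AT) read 9.33, 9.65, 9.62 and 9.99 in non-transgenic lung, 9.95, 9.94, 9.06 and 10.02 in adjacent normal lung and 9.87, 9.42, 9.48 and 10.10 in tumor. The groups overlapped throughout, and the lowest of the 12 arrays was adjacent normal lung 3. The difference between tumor and adjacent normal lung was -0.03 with an interval of -0.55 to 0.50 (adjusted p = 0.95), and it was 0.09 with each array centred on its median. The interval does not reach the differences measured for Hopx and Cav1. Whether Aqp5 changed by a different amount from Hopx or Cav1 was not tested.

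**Figure D3:**
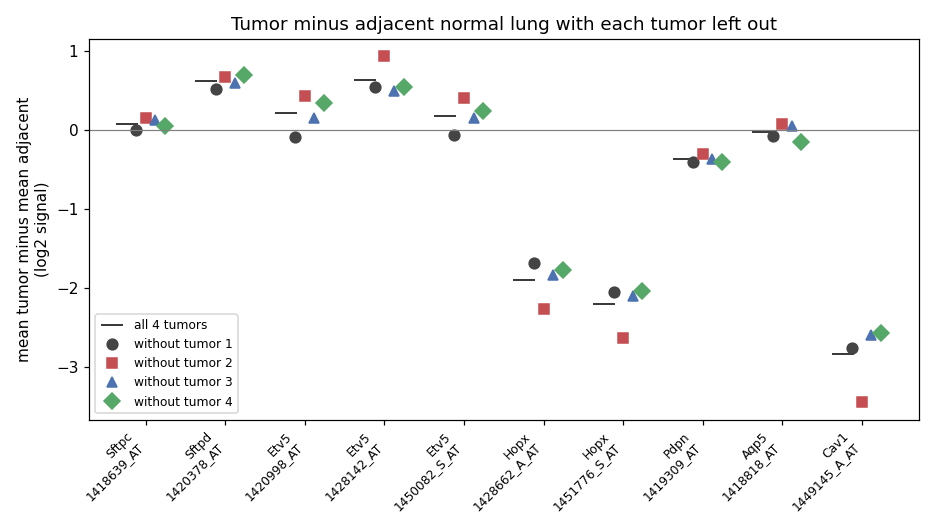
Mean tumor minus mean adjacent normal log2 signal for each probe set, with all 4 tumors (line) and with each tumor left out in turn (symbols). Without tumor 2 the differences of Hopx, Cav1 and Etv5 1428142_AT are larger, at -2.27, -2.63, -3.44 and 0.94.

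Among the type II genes, Sftpc encodes surfactant protein C, a small hydrophobic protein that only type II cells make in quantity, and the promoter of its human counterpart drives the transgene. Its probe set (1418639_AT) read 14.16, 14.21, 14.13 and 14.07 in non-transgenic lung, 14.14, 14.20, 14.12 and 14.24 in adjacent normal lung and 14.51, 14.05, 14.12 and 14.36 in tumor. The groups overlapped, and tumors 1 and 4 were above all normal lungs. The difference between tumor and adjacent normal lung was 0.08 (SE 0.12, interval -0.18 to 0.35, adjusted p = 0.63). The value of tumor 1 was the highest in the whole table, and only 8 probe sets exceeded 14 in any array. Sftpc thus sat at the top of the scale in every group, and whether its differences were compressed there was not tested.

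Sftpd encodes surfactant protein D, a collectin that binds microbes in the airspace and is made by type II cells and by airway secretory cells. Its probe set (1420378_AT) read 12.62, 12.01, 12.03 and 12.13 in non-transgenic lung, 12.05, 12.41, 12.33 and 12.63 in adjacent normal lung and 13.29, 12.84, 13.04 and 12.75 in tumor. All 4 tumors were above all 8 normal lungs, with tumor 4 closest to them. The difference was 0.62 (SE 0.18, interval 0.23 to 1.02, adjusted p = 0.025), a signal 1.54-fold higher with an interval of 1.17-fold to 2.03-fold. Of all tested probe sets, 10.4% had tumors that were all above all adjacent normal lungs, so that such a separation is common on these arrays. The call was lost after quantile normalization, where the difference was 0.44 (adjusted p = 0.10), and with the replicate number as a fixed block (adjusted p = 0.11). It was kept with the 8 arrays alone (adjusted p = 0.044) and with the number as a random block (adjusted p = 0.022). Without adjacent normal lung 1, tumor 1 or tumor 3 the adjusted p was 0.077, 0.072 and 0.063.

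Etv5, an ETS transcription factor that acts downstream of FGF and RAS signaling in type II cells, was measured by 3 probe sets that did not behave alike. The probe set 1428142_AT read 8.25, 8.33, 8.51 and 8.54 in non-transgenic lung, 8.22, 7.89, 8.27 and 8.51 in adjacent normal lung and 9.10, 7.94, 9.25 and 9.13 in tumor. Tumors 1, 3 and 4 were above all normal lungs, and tumor 2 was below all but 1 of them. The difference was 0.63 (SE 0.26, interval 0.07 to 1.19), with an unadjusted p of 0.030 and an adjusted p of 0.084. Without tumor 2 it was 0.94 (adjusted p = 0.00037), and with each array centred on its median it was 0.75 (adjusted p = 0.043).

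The remaining Etv5 probe sets gave wide intervals. On 1420998_AT, signals were 5.40, 5.35, 5.89 and 6.19 in non-transgenic lung, 5.65, 5.32, 5.59 and 6.09 in adjacent normal lung and 6.77, 5.20, 6.06 and 5.47 in tumor, a difference of 0.21 (interval -0.48 to 0.91, adjusted p = 0.64). On 1450082_S_AT, signals were 6.71, 6.68, 6.95 and 7.08 in non-transgenic lung, 7.08, 6.59, 6.88 and 7.08 in adjacent normal lung and 7.81, 6.43, 7.20 and 6.93 in tumor, a difference of 0.18 (interval -0.36 to 0.73, adjusted p = 0.60). On both, tumor 1 was the highest of the 12 arrays and tumor 2 the lowest. Over the 12 arrays these 2 probe sets had a correlation of 0.94 with each other, and of 0.65 and 0.74 with 1428142_AT. The probe sets may read different parts or forms of the transcript, and which of them follows Etv5 most closely was not tested.

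The spread among the tumors differed from gene to gene. The SD over the 4 tumors was 1.24 for Cav1, larger than that of 95.7% of the tested probe sets, and 0.78 and 0.87 for Hopx, larger than 87.8% and 90.2%. It was 0.15 for Pdpn, larger than only 14.8%. Over all tested probe sets the median SD was 0.19 in non-transgenic lung, 0.22 in adjacent normal lung and 0.31 in tumor. Tumor 1 was the highest tumor for Sftpc, Sftpd, Pdpn and 2 Etv5 probe sets, and tumor 2 was the lowest tumor for Sftpc, Pdpn, Aqp5 and all 3 Etv5 probe sets.

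Tumor was also set against the adjacent normal lung of the same replicate number. For Cav1 these differences were -3.22, -0.94, -3.55 and -3.64 in numbers 1 to 4. For Hopx they were -2.65, -0.88, -1.90 and -2.13 on 1428662_A_AT and -2.96, -1.23, -2.31 and -2.31 on 1451776_S_AT. Hopx and Cav1 were lower in the tumor in 4 of 4 numbers. For Hopx, Cav1, Pdpn and Sftpd, tumors and adjacent normal lungs did not overlap, so any pairing would give 4 of 4. Their counts therefore add nothing to that separation. Pdpn was lower in 4 of 4, with -0.27, -0.65, -0.42 and -0.13, and Sftpd was higher in 4 of 4, with 1.24, 0.43, 0.71 and 0.12. Etv5 1428142_AT was higher in 4 of 4 as well, at 0.88, 0.06, 0.98 and 0.62. The remaining Etv5 probe sets had both signs, at 1.12, -0.12, 0.47 and -0.62 on 1420998_AT and 0.73, -0.16, 0.32 and -0.15 on 1450082_S_AT. Aqp5 had differences of both signs, at -0.09, -0.52, 0.42 and 0.08.

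**Figure D4:**
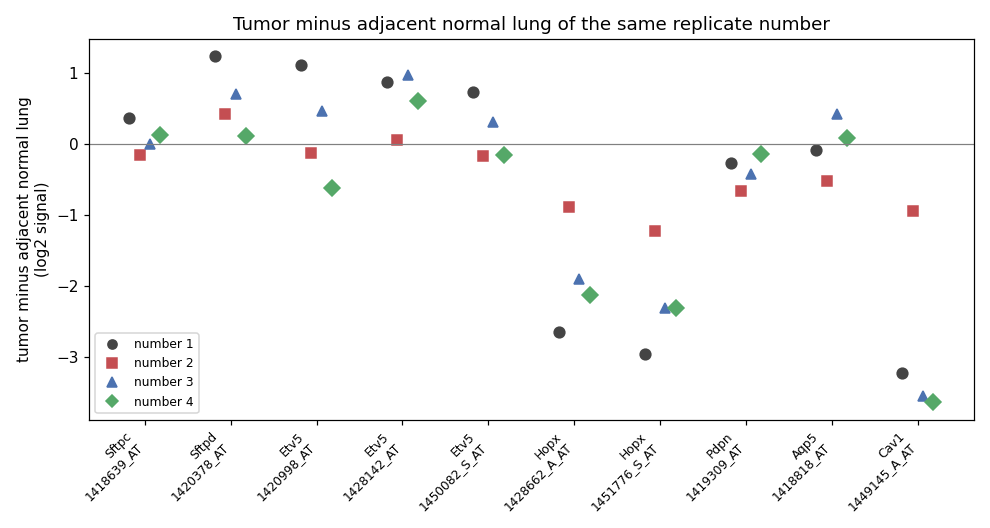
Tumor minus adjacent normal log2 signal of the same replicate number for each probe set. Hopx and Cav1 lie below 0 for all 4 numbers, with number 2 nearest to 0, Sftpd lies above 0 for all 4, and Sftpc, Aqp5 and 2 of the 3 Etv5 probe sets fall on both sides of 0. For Hopx, Cav1 and Sftpd any pairing would give the same sides, because their tumors and adjacent normal lungs did not overlap.

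The comparison of tumor with non-transgenic lung set the same tumor arrays against lungs that never carried the transgene, so it is not independent of the comparison above. Of the 10 probe sets, 1 rose and 4 fell against non-transgenic lung, where 32.5% of all tested probe sets passed, 15.6% as higher and 16.9% as lower. The same 5 probe sets had tumors that did not overlap the non-transgenic lungs, where 13.3% of all tested lay entirely above them and 15.2% entirely below. The Cav1 difference was -3.03 on the log2 scale (adjusted p = 0.00067), which is 8.15-fold lower signal. The Hopx differences were -1.78 (adjusted p = 0.0014) and -2.18 (adjusted p = 0.0011), and the Pdpn difference was -0.38 (adjusted p = 0.028). Without non-transgenic lung 2 or 4, or without tumor 3, the adjusted p of Pdpn was 0.080, 0.062 and 0.066. It was 0.068 with median centring and 0.056 with only the 8 arrays compared. Sftpd was higher by 0.78 (interval 0.38 to 1.18, adjusted p = 0.0077), 1.72-fold on the linear scale. Differences that did not pass were 0.12 for Sftpc (interval -0.15 to 0.38, adjusted p = 0.50), 0.07 for Aqp5 (adjusted p = 0.85) and 0.17, 0.45 and 0.24 for Etv5 1420998_AT, 1428142_AT and 1450082_S_AT (adjusted p = 0.72, 0.20 and 0.50). Without tumor 2, the lowest tumor on it, the difference of Etv5 1428142_AT was 0.75 (adjusted p = 0.0016). Calls over all tested probe sets then numbered 11011, against 7652 with all arrays.

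The comparison of adjacent normal with non-transgenic lung asked whether lung without visible tumor from the transgenic mice differed in these markers. That lung came from mice that also bore tumors, so the transgene and a nearby tumor cannot be told apart here. None of the 10 passed, none had an unadjusted p under 0.05, and of all tested probe sets 0% passed after adjustment while 835, or 3.55%, had an unadjusted p under 0.05. The differences ranged from -0.19 for Cav1 to 0.16 for Sftpd, with medians of 0.03 over the type II and 0.02 over the type I probe sets. For Sftpc, the 95% interval of the difference was -0.24 to 0.30. Other intervals were wider, at -1.19 to 0.81 for Cav1 and -0.76 to 0.80 for Hopx 1451776_S_AT. A 2-fold fall of Cav1 lies within its interval, so these lungs were not shown to be alike. Across the 3 groups at once, limma's moderated F test passed 5 of the 10 probe sets, against 28.6% of all tested.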

How the data were processed

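The deposited table holds log2 signals of 45101 probe sets for 12 Affymetrix Mouse 430 2.0 arrays, summarised and normalized by the authors. Their methods state Robust Multichip Average with background correction in GeneSifter, whereas the processing notes name GCRMA with no version. These methods treat background differently, which mainly moves low signals, and these statements could not be reconciled. No scanner files or read depth enter here, and precision is limited by 4 arrays a group.

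Groups and replicate numbers were read from the sample titles. A probe set was kept (23538 were) if 4 or more arrays exceeded the overall median signal of 4.18. They were fitted with limma 3.58.1 in R 4.3.3 (lmFit and eBayes, all 3 groups in a single fit) with Benjamini-Hochberg adjustment and a threshold of 0.05 on the adjusted p, two-sided. Folds are 2 raised to the log2 difference. The fit takes the spread of a probe set as equal in the 3 groups, and the SEs and intervals rest on this. For Hopx and Cav1 the tumor SD was larger than that of either normal group, so their intervals may be too narrow. The p-values set each difference against the spread between specimens within the groups. The main fit treats the specimens as independent, although tumor and adjacent normal lung may share mice. The fit was tested on simulated data. All 10 probe sets are named in the text, which was the rule for named genes.

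The design text draws tumor and adjacent normal lung from 4 transgenic mice. That equal numbers mark the same mouse was inferred from neighbouring specimen codes in the labels, whereas the methods of the study call the samples independent. The correlation of deviations from the group means within a number was -0.03, 0.10, 0.07 and 0.11 for numbers 1 to 4, and 1 of 4 tumors correlated best with its own number, so the pairing is not certain. The alternatives were other filters, median centring, quantile normalization, only the arrays compared, and the replicate number as a fixed or random block. Further alternatives were the methods' t-test, their analysis of variance across the groups, and leaving out arrays.

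The members and lists were chosen with earlier results of these data known. The lists of other cell types and pathways could not be applied without a table that names probe sets, and the search for genes of like pattern was left out for the same reason. Gene positions and promoters were taken from RefSeq (GRCm38.p6): all 7 genes had a position and 5 had a promoter sequence.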

Additional observations from a re-analysis of the deposited data

Results flagged for a closer look

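In 3 of the 30 sets of 4 arrays examined (10 probe sets in 3 groups), a single array lay far from the other arrays of its group. Chance alone gives about 1 in 20. Tumor 2 had the lowest tumor signal of Etv5 1428142_AT, 7.94, with the remaining tumors at 9.10 to 9.25. It had the highest tumor signal of Hopx 1451776_S_AT, 10.30, with the remaining tumors at 8.48 to 8.68. Aqp5 1418818_AT read 9.06 in adjacent normal lung 3 and 9.94 to 10.02 in the other adjacent normal lungs. Both arrays also stood apart over all tested probe sets.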

How the results depend on the processing

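The lower Hopx and Cav1 signals in tumor kept their direction under every alternative run and passed in all but 1, the methods' t-test after adjustment (adjusted p = 0.11, 0.095 and 0.12 against adjacent normal lung). Under that test 0 of the 10 probe sets passed against adjacent normal lung and 0 against non-transgenic lung. Without adjustment 5 and 5 passed its stated threshold, where 28.3% and 34.4% of all tested probe sets did. For the arrays, however, the study's methods name analysis of variance and not the t-test. Across the 3 groups, analysis of variance passed 5 of the 10 probe sets after adjustment, where 5733 of the 23538 tested passed. Its unadjusted form also passed 5, where 9335 of those tested passed. With the replicate block 3 passed against adjacent normal lung, 0 higher and 3 lower, and with the number as a random block 5 passed. Leaving out each array in turn gave 3 (without adjacent normal lung 1 or tumor 3) to 6 (without tumor 2) against adjacent normal lung, 4 to 6 against non-transgenic lung, 0 to 0 between the normal lungs and 3 (without tumor 1 or tumor 3) to 5 across the groups. Calls over all 23538 tested probe sets moved as well. Against adjacent normal lung they numbered 4636 without adjacent normal lung 1, 4476 without tumor 3 and 10595 without tumor 2. Against non-transgenic lung they ran from 5370 without tumor 3 to 11011 without tumor 2, against 7652 with all arrays. Across the groups they ran from 4152 without tumor 3 to 10395 without tumor 2, against 6734 with all arrays. Pdpn against adjacent normal lung lost its call in 9 of 23 alternatives and Sftpd in 6 of 23. Pdpn against non-transgenic lung lost it in 6 of 22 and Sftpd in 1 of 22. Median centring moved every tumor minus adjacent normal difference by 0.12, and it turned 3 differences that had not passed: Aqp5 against adjacent normal lung (0.092), and Sftpc (-0.016) and Hopx 1451776_S_AT (-0.026) between the normal lungs. Quantile normalization turned Pdpn between the normal lungs (0.064). Leaving out arrays turned further differences that had not passed. Against adjacent normal lung the ranges were -0.085 to 0.44 for Etv5 1420998_AT, -0.055 to 0.41 for Etv5 1450082_S_AT and -0.25 to 0.075 for Aqp5. Against non-transgenic lung they were -0.13 to 0.39, -0.0025 to 0.46 and -0.057 to 0.19. Between the normal lungs they were -0.19 to 0.12, -0.0072 to 0.16 and -0.0080 to 0.33, with -0.092 to 0.16 for Hopx 1451776_S_AT and -0.043 to 0.033 for Pdpn. The causes were not tested. Over all tested probe sets, calls between tumor and adjacent normal lung numbered 6765, against 4331 with 8 arrays, 3282 with the replicate block and 591 with the methods' t-test. They numbered 10595 without tumor 2 and 11206 without tumor 2 and adjacent normal lung 3. A stricter filter gave 4069 calls, but it left fewer probe sets to test, so that count cannot be compared directly with 6765.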
